A study of Mus musculus with 6 samples.

Results

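Isolated 5hmC CG dyads are CG dinucleotides listed for 5-hydroxymethylcytosine (5hmC) that have no other listed 5hmC CG within 1000 bases on either side. A dyad here is the pair of cytosines that face each other across the strands of a CG. Members were chosen by position in the list of 5hmC sites on chromosomes 1 to 19, the plus and minus cytosines of a CG being joined first. The rule kept 70619 of 11135596 listed dyads, or 0.634% (95% Wilson interval 0.630 to 0.639%). The other 11064977 dyads make up 99.4% of the list, so values over all dyads lie close to those of the other dyads. Because the rule used the 5hmC list, the 5hmC values below describe the members and test nothing. The list of 5-formylcytosine (5fC) was not used to choose them.

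The DNA came from E14 cells, an established line of mouse embryonic stem cells grown on gelatin with serum and LIF, and without further treatment or genetic change per the labels. Groups in the labels are 5fC libraries of a culture at passage 14, 5hmC libraries of the same culture and 5hmC libraries of a culture at passage 12, with 2 technical replicates each. Each mark has 1 deposited table of reads per cytosine, pooled over libraries, with at least 2 reads at every listed cytosine. Labels of both cultures name the 5hmC table, so its reads may include passage 12, whereas the 5fC libraries are of passage 14 alone. Comparisons between the marks below carry this limit. With 1 pooled value per cytosine there is no error between replicates, and no p-value is given. The intervals cover counting error over dyads, which are not replicates of a condition. On the autosomes the tables hold 260905804 reads at 20434856 cytosines for 5hmC and 101416586 reads at 6186387 cytosines for 5fC.

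5hmC is made from 5-methylcytosine by the TET dioxygenases, which can oxidise it further to 5fC, a form that thymine DNA glycosylase removes. In embryonic stem cells 5hmC is known from enhancers, gene bodies and the edges of CG islands. Methylation is kept up on both strands of a CG after replication, whereas no enzyme is known to copy 5hmC in this way. Libraries were made by Pvu-Seal-seq. The enzyme PvuRts1I cuts a short distance from glucosylated or plain 5hmC, most readily where another cytosine lies on the opposite strand beyond the cut, and the tagged fragments are pulled down. No genome or annotation of mm9, the build of these positions, was used here. How many CGs lie unlisted near a member, which genes hold the members, and how well reads map there were therefore not analysed.

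Isolated dyads had fewer 5hmC reads than the other dyads. Summed over both strands, the isolated dyads had a median of 6 reads, with quartiles of 4 and 11, and the other dyads a median of 14, with quartiles of 7 and 27. The mean was 9.68 reads at isolated dyads and 20.4 at the others. Of the isolated dyads 33.5% had 4 reads or fewer (interval 33.2 to 33.9%), against 14.0% of the others. The least possible number, 2 reads, was held by 10.3% of isolated and 3.76% of other dyads. The isolated dyads took 0.302% of the 5hmC reads at CG dyads, less than their 0.634% of the dyads.

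A small set of isolated dyads was nevertheless deep. Above 32 reads lay 3.32% of isolated dyads and 18.7% of the others, and above 100 reads 0.191% and 0.778%. Above 500 reads the order turned. There were 7 isolated dyads in that class, 0.00991% (interval 0.00480 to 0.0205%), and 287 others, 0.00259% (0.00231 to 0.00291%).

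**Figure D1:**
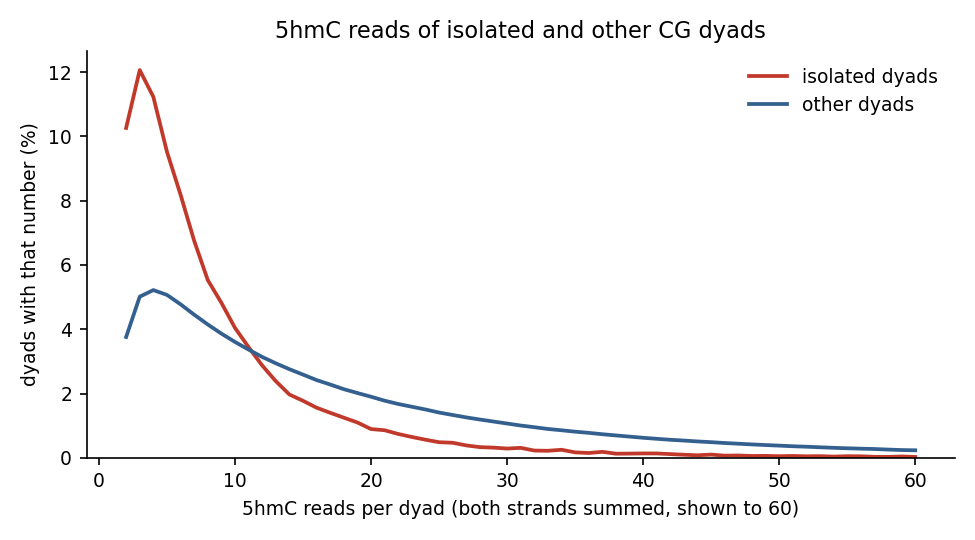
Share of isolated and of other CG dyads (vertical axis, %) with each number of 5hmC reads from 2 to 60 (horizontal axis, both strands summed). The curve of isolated dyads lies further left, with a median of 6 reads against 14 for the other dyads.

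Of the 3 deepest isolated dyads 2 were uneven between strands. The deepest, at chr2:111686780-111686781, had 1632 reads on the plus and 6 on the minus cytosine, with its neighbours 2597 and 6971 bases away. Its 5fC reads were 395 on plus and 5 on minus, so the imbalance was on the same strand for both marks. The next, at chr3:22417483-22417484, leaned the other way, with 38 plus and 899 minus reads of 5hmC, while its 5fC had 4 plus and 92 minus reads. The dyad at chr11:46536617-46536618 was more even, with 378 plus and 449 minus reads for 5hmC and with 125 plus and 208 minus for 5fC. The dyads on chromosomes 2 and 11 were also among the 3 with the most 5fC reads. The other one, at chr1:14367147-14367148, had more 5fC than 5hmC reads, 368 against 124.

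Most isolated dyads were only a little beyond the distance that defines them. The nearest listed 5hmC dyad lay at a median of 1316 bases, with quartiles of 1126 and 1690. Within 2000 bases there was no listed dyad for 10753 members (15.2%), within 5000 bases for 854 (1.21%) and within 10000 bases for 263 (0.372%). For 30857 isolated dyads (43.7%) the next listed dyad on at least 1 side was isolated too. The rule already leaves such a next dyad clear on the side facing the member, and no expected share was computed. The most remote was chr7:8065638-8065639, with neighbours 351656 and 752575 bases away and 2 reads on the minus cytosine. Next came chr14:5351128-5351129, 182691 bases from its nearest neighbour, with 4 5hmC and 7 5fC reads, all on the minus cytosine. The dyad at chr4:145858323-145858324, 87309 bases from its nearest neighbour, had 3 plus reads and no listed 5fC.

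Every autosome held isolated dyads, between 1162 on chromosome 19 and 6975 on chromosome 1. Their share of the listed dyads was lowest on chromosome 11, at 0.219%, and highest on chromosome 14, at 1.01%. The density of the list ran the other way, highest on chromosome 11 with 6.22 dyads per kb and lowest on chromosome 14 with 3.75. Per Mb there were 13.6 isolated dyads on chromosome 11 and 37.8 on chromosome 14. The median isolated dyad had 8 reads on chromosome 11, 7 on chromosomes 8 and 13, and 6 on the other 16 autosomes. For the other dyads the median was 19 reads on chromosome 11, 18 on chromosome 8 and 12 to 14 on the rest. Whether the share of isolated dyads follows read depth was not tested.

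Most isolated dyads were listed for 5hmC on 1 strand. Both strands were listed at 19.95% of isolated dyads (interval 19.7 to 20.3%), against 40.1% of the other dyads. Among members listed on 1 strand, plus was as frequent as minus, at 50.1% (49.7 to 50.5%). The number of reads matters for this share, since a dyad with 2 or 3 reads cannot have the 2 reads that each listed cytosine has at least. The other dyads were therefore reweighted so that each number of 5hmC reads, with those above 100 as 1 class, was as frequent as among isolated dyads. At equal reads 19.6% of the other dyads were on both strands, 0.356 percentage points below the 19.95% of isolated dyads.

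The strand pairing of isolated dyads thus lay close to that of other dyads with the same reads, though not in every class of reads. With 5 to 8 reads, the class with the most isolated dyads, 10.5% of isolated (interval 10.1 to 10.9%) and 11.1% of other dyads were on both strands. With 9 to 12 reads 30.3% of isolated (interval 29.4 to 31.2%) and 29.3% of other dyads were on both strands. With 17 to 24 reads the shares were 56.7% (55.3 to 58.0%) and 56.0%. Isolated dyads were also less often on both strands among the deepest, at 72.9% (70.9 to 74.9%) against 76.3% with 33 to 64 reads and at 77.9% (73.7 to 81.6%) against 87.1% from 65 reads. By chromosome the difference at equal reads ran from -1.51 points on chromosome 12 to 1.62 points on chromosome 3 and was positive on 15 of 19 autosomes. It turned to -5.93 points when dyads were matched on the reads of their deeper strand instead of the sum, with 25.9% of other dyads on both strands.

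Where both strands of an isolated dyad were listed, the reads were split slightly more evenly. Among dyads with 20 to 40 reads, the strand with fewer reads had on average 0.503 times the reads of the deeper strand in 3555 isolated dyads and 0.477 times in the others. Reads were not matched within this range. Exactly 20 reads were held by 0.895% of all isolated and 1.90% of all other dyads, and 40 reads by 0.137% and 0.624%. Whether this accounts for the difference was not tested.

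**Figure D2:**
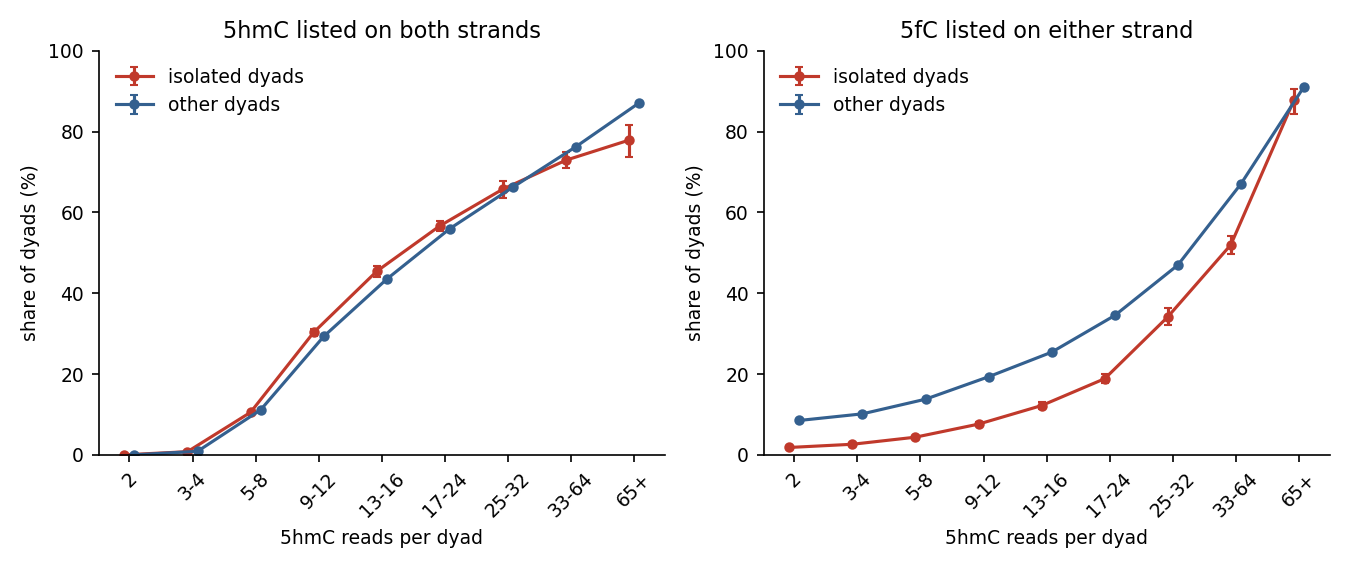
Share of dyads listed for 5hmC on both strands (left) and for 5fC on either strand (right) by 5hmC reads per dyad (horizontal axis), with 95% Wilson intervals. The isolated and other dyads lie close together on the left up to 32 reads. On the right isolated dyads lie lower throughout, as at 9 to 12 reads with 7.60% against 19.3%, and the gap is narrowest from 65 reads.

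5fC was listed far less often at isolated dyads. It was listed on either strand at 6006 of the 70619 isolated dyads, or 8.50% (interval 8.30 to 8.71%), against 32.3% of the other dyads and 32.2% of all dyads. The gap was 23.8 points. Isolated dyads have fewer 5hmC reads, and 5fC is listed more often where 5hmC reads are many, so the shares were also compared at equal 5hmC reads. At equal reads 18.3% of the other dyads had 5fC, 2.15 times the share of isolated dyads. A gap of 9.81 points therefore remained after reads were matched. The regional density of listed dyads was not matched here. Most isolated dyads lay in sparse regions, where the gap was smaller, as given below.

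The gap held in all 9 classes of reads but narrowed in relative terms with depth. With 2 5hmC reads 1.82% of isolated and 8.51% of other dyads had 5fC. With 17 to 24 reads the shares were 18.8% (17.8 to 19.9%) and 34.5%, and with 33 to 64 reads 52.0% (49.7 to 54.2%) and 67.0%. From 65 reads they were 87.8% (84.3 to 90.5%) and 91.1%. Isolated dyads with both 5hmC strands listed had 5fC in 16.9% of cases and those with 1 strand in 6.41%, against 29.8% and 15.4% of the other dyads at equal reads. Counted by single cytosines, 5fC lay on the same base as 5hmC at 6.98% of the cytosines of isolated dyads, and at 15.4% of other cytosines with equal reads.

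At equal reads the share was lower at isolated dyads on each of the 19 autosomes, by between 7.97 points on chromosome 13 and 13.8 points on chromosome 11. Isolated dyads had 5fC in 7.15% of cases on chromosome 16, the lowest, and in 11.4% on chromosome 11, the highest. Chromosome 11 also had the highest median of 5hmC reads, at isolated and at other dyads. Whether some 5fC sites are 5hmC read as 5fC was not tested.

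Where 5fC was listed at an isolated dyad, it had fewer reads and was less often on both strands. The 6006 isolated dyads with 5fC had a median of 11 5fC reads, with quartiles of 6 and 19, and the other dyads with 5fC a median of 15. At equal 5hmC reads the mean was 16.6 5fC reads at isolated and 18.4 at other dyads. Over all members there were 0.146 5fC reads per 5hmC read, against 0.340 at the other dyads. 5fC on both strands was found at 520 isolated dyads, 8.66% of those with 5fC (7.97 to 9.40%). Among other dyads with the same numbers of 5fC reads the share was 14.5%.

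The marks shared their strand more often at isolated dyads. In 3498 isolated dyads each mark was on a single strand, and in 86.1% of them that was the same cytosine (interval 85.0 to 87.2%). For the other dyads the share was 79.8%, or 76.4% at equal 5hmC reads and 78.5% at equal 5fC reads. In isolated dyads with 5hmC on both strands and 5fC on 1, the 5fC lay on the strand with more 5hmC reads in 72.7% of 1909 cases (70.7 to 74.7%), against 70.4% of the other dyads. Reads were not matched for this last share. Dyads with 5hmC on both strands had a median of 15 5hmC reads if isolated and 25 otherwise. The library titles name Pvu-Seal-seq for both marks, and whether PvuRts1I prefers a strand at these sites was not tested.

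The share of dyads with 5fC fell with the distance to the nearest listed 5hmC dyad and levelled off before 1000 bases. Taken at the reads of isolated dyads, it was 27.2% for dyads 1 to 10 bases from their neighbour, 20.4% at 21 to 50 bases, 12.1% at 101 to 200 and 9.83% at 201 to 500. From 501 to 900 bases it was 8.59%. As listed, members just inside the limit, at 1001 to 1100 bases, had 5fC in 8.68% of 14560 cases. Their median was 7 reads, and 21.6% of them were on both strands. Dyads just outside, at 901 to 1000 bases, had 5fC in 8.29% of 19720 cases as listed. Their median was 7 reads too, with 21.4% on both strands. At the reads of isolated dyads the 5fC shares were 8.28% just inside and 8.08% just outside. The distance of 1000 bases thus marks no step in these values.

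Up to 2000 bases, strand pairing followed distance hardly at all once reads were matched. At the reads of isolated dyads, it lay between 19.1 and 20.7% in every distance class up to 2000 bases. It was lower beyond, at 18.6% for the 9899 dyads at 2001 to 5000 bases. The most remote members, though few, had higher 5fC shares. Among the 854 dyads with no listed dyad within 5000 bases, 16.2% had 5fC (interval 13.8 to 18.8%), or 11.7% at the reads of isolated dyads as a whole. Their pairing was 19.2% as listed (16.70 to 21.98%) and 14.2% at those reads.

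**Figure D3:**
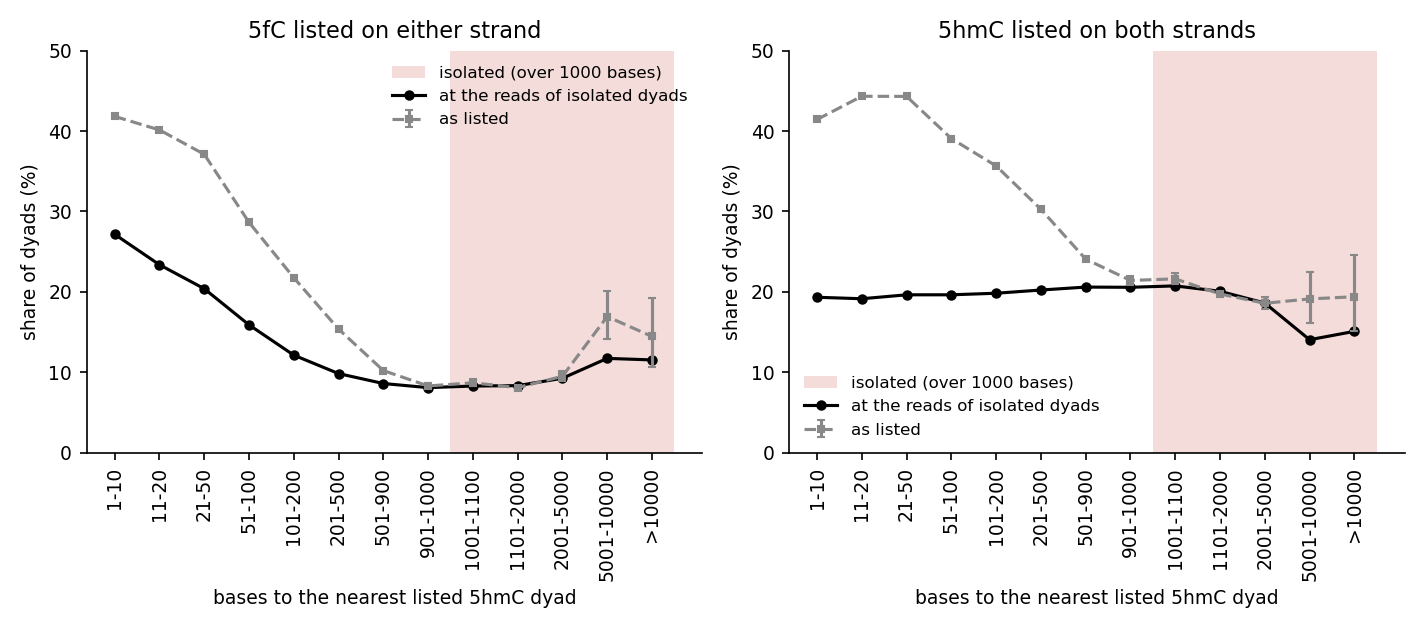
Share of dyads with 5fC (left) and with 5hmC on both strands (right) by the distance to the nearest listed 5hmC dyad, as listed with 95% Wilson intervals (grey) and reweighted to the reads of isolated dyads (black). Shading marks isolated dyads. The black 5fC line falls to 8.59% at 501 to 900 bases and runs on level to 2000 bases, while the black pairing line is nearly flat to 2000 bases.

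The number of neighbours gave the same order. At the reads of isolated dyads, 5fC was listed at 8.50% of dyads with no other dyad within 1000 bases and at 8.63% of those with 1 other. With 6 to 10 others the share was 13.2%, with 21 to 40 others 28.5%, and with more than 40 others 38.3%. Dyads with a clear stretch of 1000 bases on 1 side lay at 9.88%, close to isolated dyads.

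Isolated dyads were found mostly in sparse regions, which the rule itself favours, since density was taken from the same 5hmC list. The gap in 5fC was small in those regions. Windows of 100 kb were placed in 5 classes of equal size by their number of listed 5hmC dyads, a division made after the values above were seen. The sparsest class, with 1 to 185 dyads per window, held 41701 isolated dyads, 59.1% of them. There 7.80% of isolated dyads had 5fC (interval 7.55 to 8.06%), against 9.29% of other dyads at equal reads. In the densest class, with 739 to 1640 dyads per window, there were 554 isolated dyads. Of these 13.4% had 5fC (10.8 to 16.4%), against 27.5% of the others at equal reads. The share in the densest class was 1.71 times that in the sparsest for isolated dyads and 2.96 times for other dyads. From the sparsest class to the densest the gap was 1.49, 3.30, 5.85, 9.21 and 14.1 points. The class next to the sparsest held 28.6% of isolated dyads. The difference in 2-strand listing at equal reads was 0.119 points in the sparsest class, and -0.433, -0.772, -1.33 and -0.686 points in the other 4, from sparser to denser.

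**Figure D4:**
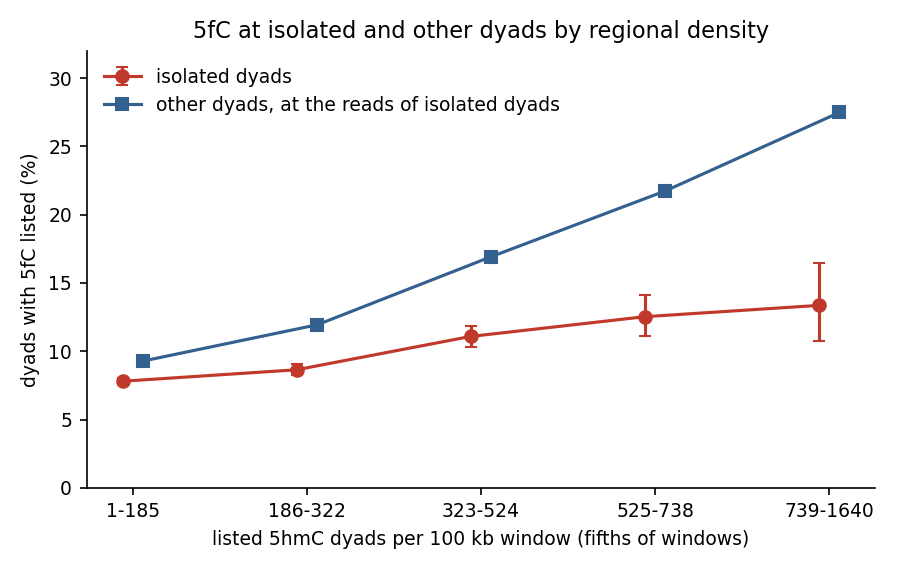
Share of dyads with 5fC listed (vertical axis, %) in 5 classes of 100 kb windows ordered by the number of listed 5hmC dyads (horizontal axis), for isolated dyads with 95% Wilson intervals and for other dyads reweighted to the reads of the isolated dyads of the same class. Both lines rise, isolated dyads from 7.80 to 13.4% and other dyads from 9.29 to 27.5%.

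Isolated dyads also stood mostly free of listed 5hmC sites outside CG. The rule did not count these sites, but they are in the same 5hmC list and some lie close to listed CGs. Leaving out dyads with a near CG can therefore leave out such sites too. The numbers of non-CG 5hmC sites are thus not independent of the rule. A non-CG 5hmC site lay within 1000 bases of 16.1% of isolated dyads (interval 15.8 to 16.4%) and of 88.6% of the others. There were 213 such sites per 1000 isolated dyads and 8675 per 1000 other dyads. A site near 2 dyads counts for each of them. Among dyads with no non-CG site within 1000 bases, 5fC was listed at 7.53% of isolated dyads and 8.03% of the others at equal reads, a gap of 0.502 points. Non-CG 5fC sites lay within 1000 bases of 5.63% of isolated and 66.5% of other dyads. A further dyad with 5fC but no listed 5hmC lay that close to 3.40% of isolated dyads.

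A part of the non-CG sites near isolated dyads lay at a fixed spacing from them, 650 of the 15028 counted within 1000 bases. Positions were counted along the strand of each cytosine of a dyad, listed or not. From 20 to 23 bases before it there were 650 non-CG 5hmC sites at 141238 cytosines of isolated dyads, 0.460%, against 28 sites or 0.0198% from 30 to 33 bases before. At 20 to 23 bases after it there were 84 sites. The other dyads had 13.8% at 20 to 23 bases before and 1.13% at 30 to 33 before. Measured against the mean per position 51 to 100 bases before, sites were 23.6 times as frequent in the spaced positions at isolated dyads and 13.2 times at the others. That mean was 0.00487% at isolated dyads and 0.262% at the others. Because the rule can itself lower the mean at isolated dyads, these ratios cannot show whether the spacing is stronger there. For 5fC there were 430 non-CG sites 20 to 23 bases before isolated dyads and 9 at 30 to 33.

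Of the 650 sites 50.8% were CA (interval 46.9 to 54.6%), 31.7% CT and 17.5% CC. Spacings of 21 and 22 bases took 36.8% and 32.2% of them. These sites were shallow, with a median of 4 reads. A smaller group of non-CG sites lay 1 to 3 bases before a cytosine of an isolated dyad. It was found at 0.515% of the cytosines that were listed (436 sites) and at 0.0938% of those that were not (53 sites). The other dyads showed this too, with 2.29% at listed and 0.651% at unlisted cytosines.

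Isolated dyads with a spaced non-CG site were deeper. There were 637 of them, 0.902% of isolated dyads (0.835 to 0.974%), against 23.9% of the other dyads or 12.5% at equal reads. Their median was 16 5hmC reads, against 6 at the 69982 isolated dyads without such a site. 5fC was listed at 32.2% of them (28.7 to 35.9%) and at 24.4% of isolated dyads without a site at equal reads. Both strands were listed at 41.8% and 42.7%. Among 371 members listed on 1 strand with a spaced site on 1 strand, the site was on the strand of the listed cytosine in 30.5% (26.0 to 35.3%) and otherwise on the opposite strand.

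**Figure D5:**
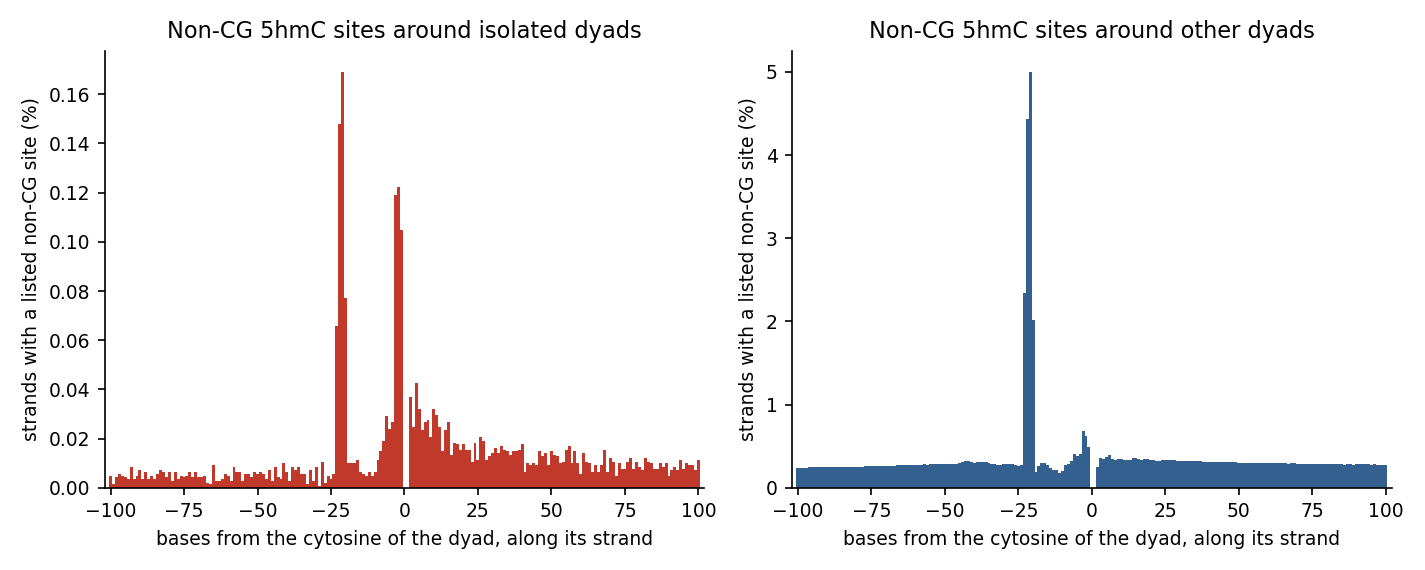
Share of dyad cytosines (vertical axis, %) with a listed non-CG 5hmC site at each distance along the strand (horizontal axis, negative is before the cytosine), for isolated dyads on the left and other dyads on the right, on different scales. Both panels peak 20 to 23 bases before the dyad, with sums of 0.460% and 13.8%. Both panels also rise 1 to 3 bases before the dyad, with sums of 0.346% and 1.797%.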

How the data were processed

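Reads were processed by the authors with Bowtie, cutadapt, CASAVA and bcl2fastq and placed on build mm9, per the submitters' processing notes. Not given in the sources used here are versions, the way cut ends were turned into cytosines, how 5fC libraries were made and what makes a site common. The authors deposited 2 tables of whole-number read counts per cytosine, not normalized and pooled over libraries. Labels of both cultures name the 5hmC table, and it was taken to hold passage 14, from the mark of a first replicate in its name. A cytosine missing from a table is not shown to lack reads, and reads carry no molecular identifiers.

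Chromosomes 1 to 19 were used. Positions are printed counting from 1. The members, and the comparisons made, were chosen with earlier results of these data known. Dyads named are the 3 with the most 5hmC reads, the 3 with the most 5fC reads and the 3 farthest from a neighbour on both sides. Shares have 95% Wilson intervals. No sequence is printed, because no mm9 genome was used here. Counting was tested on 120000 simulated dyads, of which 20000 were isolated, and all 7 of 7 checks were passed. The software was Python 3.11.15, numpy 2.4.6, pandas 2.3.3, scipy 1.17.1 and matplotlib 3.10.9.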

Additional observations from a re-analysis of the deposited data

How the results depend on the processing

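No paired analysis was possible because each table holds 1 pooled read count per cytosine; for the same reason leaving out a library was not run. Values below are, in order, the share isolated, the median reads of isolated dyads, the difference in 2-strand listing (isolated minus other, in points) as listed and at equal reads, the same for 5fC, and the share with a spaced non-CG site. Since the intervals are narrow, small moves are listed too, and the causes were not tested. With a distance of 500 bases they were 2.70%, 7, -17.5, 0.963, -23.1, -10.3 and 1.31%. With 2000 bases the median stayed at 6 and the others were 0.0966%, -21.4, -1.33, -22.2, -8.67 and 0.781%. With at least 5 reads per cytosine they were 1.07%, 9, -17.6, 1.65, -24.03, -10.7 and 0.567%, and with at least 10 reads 2.28%, 14, -12.7, 1.95, -21.5, -10.4 and 0.436%. These least numbers were set for 5hmC, 5fC and non-CG sites alike. Isolated dyads were chosen anew among the remaining sites, giving 100482 and 146742 of them. With 5fC dyads as neighbours too, the share isolated was 0.613% and the other 6 values stayed within their intervals. Chromosomes 8 and 11 had the highest median reads at the other dyads. Without chromosomes 8 and 11 the share was 0.680%, 2-strand listing differed by -19.5 points, and 5fC by -22.7 as listed and -9.40 at equal reads. Matched on the deeper strand, the differences were -5.93 points in 2-strand listing and -10.2 in 5fC. Added after the data were seen, the sparsest windows gave -1.49 points in 5fC, the densest -0.686 in 2-strand listing and -14.1 in 5fC, dyads without non-CG sites -0.502 in 5fC and single cytosines -8.44. The difference in 5fC kept its sign in each of these settings. That in 2-strand listing at equal reads turned negative in 3 of them, and over the 5 classes of windows it was positive in the sparsest alone.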

Other observations

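Chromosome X lies outside the rule and has a single copy in male cells such as E14. It held 13775 isolated dyads among 259735 listed 5hmC dyads. That is 5.30% (interval 5.22 to 5.39%), against 0.634% on the autosomes, and 84.2 per Mb. Isolated dyads on X had a median of 5 5hmC reads and the other dyads on X a median of 7. 5fC was listed at 645 isolated dyads of X, 4.68% (4.34 to 5.05%), against 8.64% of the other dyads of X at equal reads. Both strands were listed at 13.1% of isolated and 12.7% of other dyads of X at equal reads. On X, too, 5fC was therefore listed less often at isolated dyads, and strand pairing at equal reads lay close to that of the others.

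Non-CG 5hmC sites around isolated dyads were not even on both sides outside the spaced positions. From 24 to 100 bases after the cytosine of an isolated dyad, along its strand, there were 1214 sites, and 555 at the same distances before it. Around the other dyads there were 5100715 after and 4642878 before. Whether mapping or the assignment of cut ends gives this asymmetry was not tested.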
